A study of Mus musculus with 18 samples.

Results

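The p53 target genes described here were Trp53, the mouse gene of p53 itself, and 34 genes known as its transcriptional targets, given as a list of 35 symbols and matched to the 36528 genes of the files by mouse Entrez identifier. All 35 were found, and all 35 passed the filter on low counts. Their messenger RNA was measured in mouse embryonic stem cells of 6 groups with 3 libraries each. The groups were BAP1 wild type, an untreated conditional BAP1 knockout line and the BAP1 knockout made from it, an untreated C91A line and the knock-in BAP1 C91A mutant made from it, and an RNF2-BAP1 double knockout. Knockout, C91A mutant and double knockout had received 100 nM 4-hydroxytamoxifen, which induces Cre-mediated recombination, for 4 days. For the double knockout the drug is named in the sample labels but not in the group name of the series' design text, and it is taken here as treated. All cells of all groups received emricasan, an inhibitor of caspases, so transcripts were read in cells treated to block caspase-dependent death. How far that death was blocked was not measured here. Whether the wild type cells also received 4-hydroxytamoxifen, which promoter drives Cre, whether each line is 1 clone and which line the double knockout came from are not given in the sources used here. The untreated lines lacked the drug, so the effect of an allele cannot be told apart from that of the drug and of Cre, and no untreated double knockout was analysed here. The labels do not say whether the 3 libraries of a group came from separate cultures, and p-values then measure only the spread between these libraries, which may be technical.

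BAP1 takes ubiquitin off histone H2A, RNF2 puts it on as the ligase of Polycomb repressive complex 1, and C91A replaces the catalytic cysteine of BAP1. The p53 protein is a transcription factor held at low activity by MDM2, which binds it and marks it for degradation. Stress such as DNA damage releases p53, which then binds response elements made of a pair of half-sites and raises genes of cell cycle arrest, DNA repair, cell death and metabolism, among them Mdm2 itself, which closes a feedback loop. Embryonic stem cells hold much p53 protein, and their p53 pathway is known to act also on differentiation and on the loss of damaged cells.

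Promoter sequences are shown first, because p53 acts on its targets through such response elements. RefSeq promoter windows of GRCm38.p6, running from 250 bases before to 50 bases after a gene start, were present for 28 of the 35 genes. The p53 half-site consensus, which is its own reverse complement and so covers both strands, occurred without mismatch in the windows of 10 of these 28 genes (35.7%), against 9.55% of all 27025 genes with a window. A pair of half-sites with a spacer of up to 13 bases and at most 1 mismatch occurred in 3 of them, Cdkn1a, Ccng1 and Polk (10.7% against 1.24% of all genes), and without mismatch in Cdkn1a alone (3.57% against 0.074%). These shares are per gene, and a gene with more windows has more chances of a match. The 28 genes had 40 windows, and the 27025 genes had 32851. Per window, 11 of the 40 held a half-site without mismatch, against 8.36% of all windows. A match is a description of the letters and does not show binding, and no match says nothing of p53 outside these windows. Printed below, 5′ to 3′ in the direction of the gene, are the first 220 bases of the windows of Cdkn1a (chr17:29090729-29090948, plus strand) and Ccng1 (chr11:40755317-40755536, minus strand), and the element of Polk (chr13:96519398-96519418, minus strand). Capitals mark the half-sites of elements with at most 1 mismatch.
Cdkn1a: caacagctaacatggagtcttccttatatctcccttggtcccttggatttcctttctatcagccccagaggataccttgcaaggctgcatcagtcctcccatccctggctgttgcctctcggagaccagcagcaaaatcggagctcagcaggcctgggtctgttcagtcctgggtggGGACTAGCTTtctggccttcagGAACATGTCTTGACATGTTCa
Ccng1: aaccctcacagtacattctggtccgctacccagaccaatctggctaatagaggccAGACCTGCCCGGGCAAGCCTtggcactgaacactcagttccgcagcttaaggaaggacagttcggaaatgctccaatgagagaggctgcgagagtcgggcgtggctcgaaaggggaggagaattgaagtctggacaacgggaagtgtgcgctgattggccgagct
Polk: GAACTAGCCTcAAACTTATTC
In Cdkn1a the element without mismatch began 73 bases before the start with a spacer of 12 bases. Its downstream half-site also formed an element without spacer and with 1 mismatch, beginning 51 bases before the start. Which of these elements p53 uses was not tested. The start taken for Cdkn1a was the outermost of the gene, which spans 29090979 to 29100722 on the plus strand of chromosome 17. Which start of Cdkn1a these cells use was not tested, so its distances hold for this start only. The element of Ccng1 began 195 bases before the start. That of Polk began 231 bases before an alternative start inside the gene, which spans 96480687 to 96542579 on the minus strand of chromosome 13, and not at its 5′ end.

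Levels are given as CPM, that is counts scaled by library size and TMM factor, and differences as log2 fold changes, each with a standard error (SE). A gene was called higher or lower where edgeR's quasi-likelihood test gave an adjusted p under 0.05 (Benjamini-Hochberg, over 16875 genes). Libraries held 8.11 to 23 M (mega) counts, the shallowest being a BAP1 knockout library. Members varied little within groups, with a median coefficient of variation of 3.69% over 210 combinations of gene and group and under 10% in 200 of them. The 8 stem cell markers were detected in every group, at a summed 2651 to 4235 CPM. Bap1 transcripts averaged 178 CPM in wild type, 169 in the untreated knockout line and 149.8 after knockout. The untreated C91A line stood at 88.9 CPM, below wild type by -1.01 on the log2 scale (SE 0.05, adjusted p = 6.0e-20), and the C91A mutant at 165. Rnf2 averaged 74.5 CPM in the double knockout, against 103 to 123 in the other groups. A count over a whole gene includes transcripts that lack a deleted exon, so it checks these genotypes only in part.

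Per gene length, in the RPKM values of the authors, the 35 genes spanned 1.24 (Fas) to 185 (Psrc1) in wild type, with a median of 23.9. Trp53 was second at 162 ± 5.86 RPKM (SD, n = 3), above Ccng1 at 86 ± 3.66 and Phlda3 at 79.3 ± 1.72. Mdm2 stood at 76.3 ± 2.76, close to Phlda3 within the spread of the libraries, and Cdkn1a at 53.6 ± 0.883. The median of the 35 genes was 31.9 RPKM in the untreated knockout line and 47.4 in the BAP1 knockout, 25.3 in the untreated C91A line and 37.3 in the C91A mutant, and 31.5 in the double knockout. The summed CPM of the genes was 3981 to 3992 in the wild type libraries, 4489 to 4504 in the untreated knockout line and 6451 to 6484 after knockout. It was 3839 to 3917 in the untreated C91A line, 5100 to 5207 in the mutant and 4700 to 4766 in the double knockout. The BAP1 knockout had the highest mean of the 6 groups for 21 of the 35 genes, and the untreated C91A line the lowest for 18. The matching counts among all genes were not computed, so these counts do not set the members apart from genes at large.

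**Figure D1:**
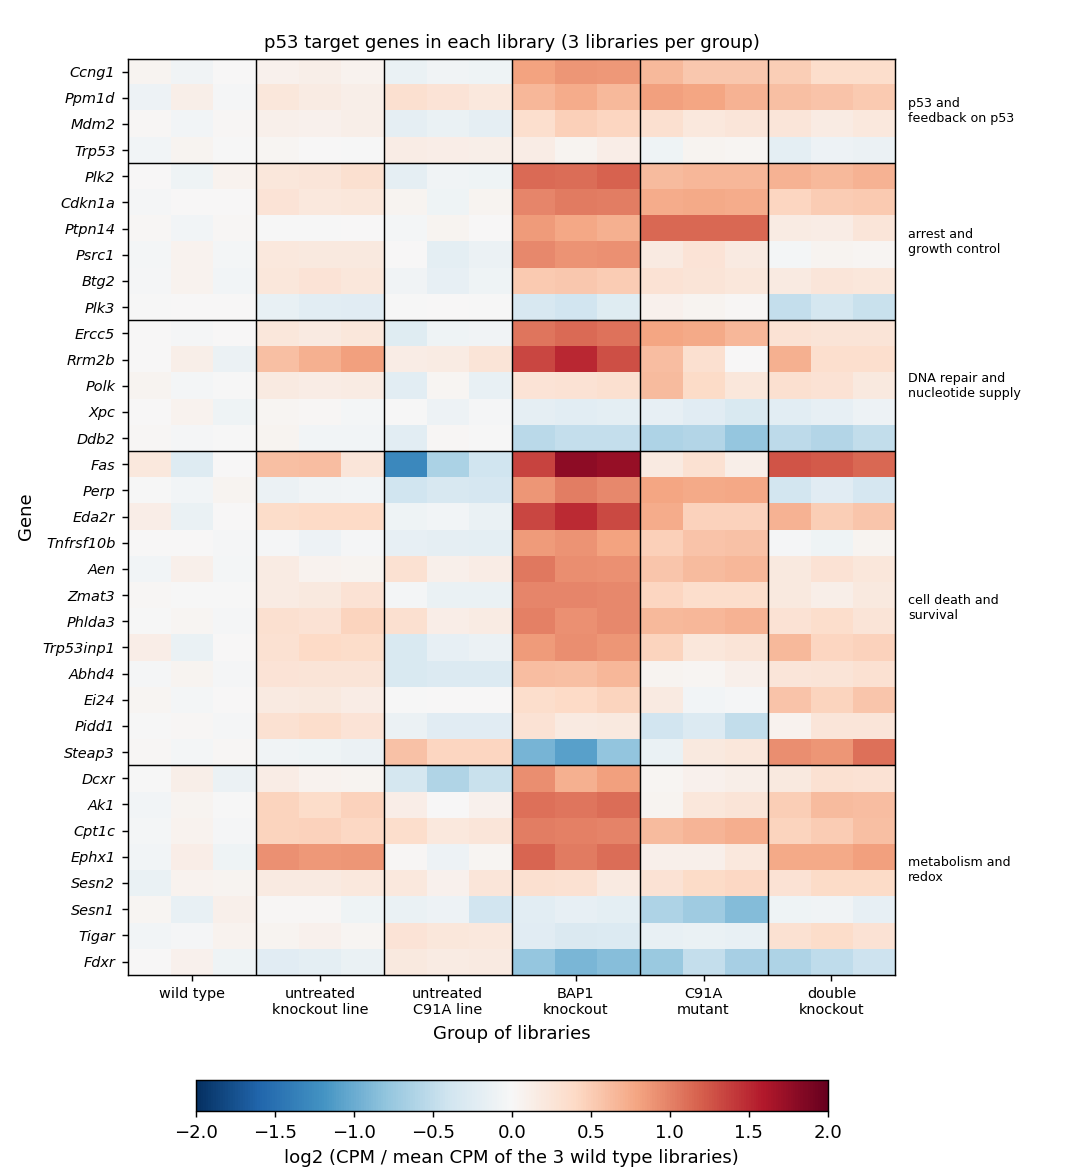
Level of each of the 35 genes in each of the 18 libraries, as the log2 ratio of its CPM to the mean CPM of the wild type libraries (colour scale), with genes in rows by role and libraries in columns by group. The BAP1 knockout holds the highest mean for 21 genes, a count not computed for all genes. Ddb2, Fdxr, Xpc, Steap3 and Tigar are lower there than in its untreated line.

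After BAP1 knockout, p53 target genes were mostly higher than in the untreated line. The list was chosen with earlier results of these data known. Of the 35, 25 were higher, against 31.3% of all genes tested, 5 were lower, against 30.3%, and 5 did not pass the test. In either direction 61.6% of all genes were called. Their median log2 fold change was 0.53, where that of all genes was -0.01, and only Fas and Perp passed a 2-fold change. Among the roles, 4 of 4 genes of p53 and its feedback, 5 of 6 of arrest and growth control and 10 of 12 of cell death were higher. Repair and nucleotide supply was split, with 2 of 5 higher and 2 lower, and metabolism had 4 of 8 higher and 2 lower. When only the compared groups were fitted, 8 genes were called lower rather than 5, with Plk3, Sesn1 and Pidd1 added.

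Trp53 itself changed little. Its transcripts stood at 395, 385 and 383 CPM in the untreated knockout line and 425, 399 and 419.8 after knockout, ranges that lay just apart. The difference of 0.10 (SE 0.04, adjusted p = 0.045) lost its call without knockout library 1 (0.08) or 3 (0.09), without untreated library 2 (0.09) or 3 (0.09), with DESeq2 (0.10) and under 4 other settings. In the C91A line Trp53 went from 425, 420.3 and 418 CPM to 360.4, 398 and 396, with all mutant libraries below all untreated ones. That fall of -0.13 (SE 0.04, adjusted p = 0.0093) lost its call without mutant library 1 (-0.08), the lowest. Trp53 counts are of messenger RNA, while p53 is controlled largely as protein, which was not measured here.

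Mdm2, whose product holds p53 down, stood at 288, 284 and 291 CPM in the untreated knockout line and at 338, 370.5 and 359 after knockout. It stood at 237, 244 and 236 CPM in the untreated C91A line and at 335, 311 and 316 in the mutant. In both lines every treated library was above every untreated one. Mdm2 rose by 0.30 (SE 0.04, adjusted p = 6.5e-08) after knockout and by 0.42 (SE 0.04, adjusted p = 4.1e-11) in the mutant. The other feedback genes were Ppm1d, a phosphatase that acts on p53 and its kinases, and Ccng1, a cyclin that recruits a phosphatase to MDM2. Ppm1d rose by 0.51 and 0.50 in the knockout and the mutant, and Ccng1 by 0.76 and 0.67. The library values of Ccng1 were 329 to 339.9 CPM before and 549 to 584 after knockout, and 286 to 299.9 before and 456 to 496 in the mutant.

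Among genes of arrest and growth control, Cdkn1a encodes p21, the inhibitor of cyclin-dependent kinases that carries much of the p53 arrest. It stood at 137, 130.5 and 132 CPM in the untreated knockout line and at 223, 233 and 229.7 after knockout. In the untreated C91A line it stood at 118, 106 and 118 CPM, and in the mutant at 188, 192 and 189.6. Groups were far apart in both lines. Cdkn1a rose by 0.78 (SE 0.05, adjusted p = 2.4e-18) after knockout and by 0.74 (SE 0.05, adjusted p = 2.6e-17) in the mutant. In GENCODE M21, 10% of its exon bases overlap a gene on the opposite strand, AC167363.2, and the sources used here do not say whether the counting was stranded.

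Plk2, a polo-like kinase, went from 135, 137 and 144 CPM to 255, 252 and 262 after knockout and from 102, 110.1 and 109.8 to 179.8, 184 and 184 in the mutant. The rises were 0.89 (SE 0.05, adjusted p = 2.6e-20) and 0.76 (SE 0.05, adjusted p = 9.7e-18). Ptpn14, a phosphatase that restrains the YAP pathway, went from 162, 161 and 164 CPM to 294, 277 and 266 after knockout, and from 159, 169 and 163 to 361, 360.2 and 359 in the mutant. It was the most raised gene of the list in the mutant, at 1.14 (SE 0.04, adjusted p = 3.4e-24), against 0.78 (SE 0.04) after knockout. Btg2, an antiproliferative factor, rose by 0.28 and 0.37, and Psrc1, a microtubule-associated protein of the spindle, by 0.73 and 0.31. Plk3, a relative of Plk2, stood at -0.12 (adjusted p = 0.051) after knockout and at 0.06 (adjusted p = 0.3) in the mutant, and did not pass the test in either. Without knockout library 3 it was called lower after knockout (-0.16). The same call came with DESeq2 (-0.12), with RLE size factors (-0.12) and when only the compared groups were fitted (-0.14).

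Repair genes went both ways. Ercc5, the endonuclease XPG of nucleotide excision repair, went from 108, 105 and 108 CPM to 195, 202 and 197 after knockout, and from 77.7, 87.1 and 88.2 to 160.5, 156 and 146 in the mutant. It rose by 0.89 (SE 0.05, adjusted p = 1.5e-19) and 0.87 (SE 0.05, adjusted p = 8.6e-19). Ddb2 and Xpc, which recognise damage in the same repair path, were lower in both. Ddb2 fell from 32.8, 30.6 and 30.5 CPM to 21.8, 22.7 and 22.7 after knockout (-0.48, SE 0.08, adjusted p = 9.1e-07) and from 27.4, 32.3 and 31.6 to 20.6, 21 and 18.6 in the mutant (-0.61, SE 0.08, adjusted p = 6.4e-09). Of its exon bases, 26.7% overlap Acp2 on the opposite strand. Xpc fell from 55.4 to 58.6 CPM down to 49 to 50.4 (-0.21, SE 0.06, adjusted p = 0.0028) and from 53.1 to 56.8 down to 46.3 to 50.6 (-0.19, SE 0.06, adjusted p = 0.0058), and the latter lost its call at equal depth (-0.13). Polk, a polymerase that copies past damaged bases, rose in the mutant by 0.50 (SE 0.08, adjusted p = 1.1e-06) and stood at 0.12 (adjusted p = 0.18) after knockout. Rrm2b, a ribonucleotide reductase subunit that supplies nucleotides for repair, rose after knockout by 0.66 (SE 0.11, adjusted p = 1.5e-06) and stood at 0.13 (adjusted p = 0.38) in the mutant.

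Genes of cell death held the 4 largest rises after knockout. Fas, a death receptor, went from 3.52, 3.55 and 2.74 CPM to 5.94, 8.06 and 7.76 after knockout (1.14, SE 0.17, adjusted p = 2.3e-07) and from 0.949, 1.49 and 1.76 to 2.62, 2.86 and 2.52 in the mutant (0.91, SE 0.23, adjusted p = 8.8e-04). Per length it was the lowest gene of the list in wild type, both untreated lines and the mutant, though not in the BAP1 knockout or double knockout. Its 3 libraries of the untreated C91A line had a coefficient of variation of 29.4%, the highest of any gene and group here. Perp, a membrane protein of cell junctions linked to p53-dependent death, went from 85.5, 88.1 and 89.2 CPM to 172, 188 and 180.0 after knockout, and from 70.9, 74.7 and 73.5 to 161, 157 and 159 in the mutant. The groups were far apart, at log2 differences of 1.04 (SE 0.05, adjusted p = 2.0e-21) and 1.12 (SE 0.05, adjusted p = 4.6e-22). Eda2r, a receptor of the tumour necrosis factor family, went from 85.1, 87 and 87.2 CPM to 166, 186 and 164 after knockout (0.99, SE 0.06, adjusted p = 4.3e-17). Tnfrsf10b, the receptor of the death ligand TRAIL, went from 83.9, 78.9 and 83.4 CPM to 154, 158 and 148 (0.90, SE 0.05, adjusted p = 2.6e-19). In the mutant these receptors rose by 0.64 and 0.72.

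The other genes of this role that rose in both lines were Aen, a nuclease (0.87 after knockout and 0.43 in the mutant), Zmat3, an RNA-binding zinc finger protein (0.75 and 0.48), Phlda3, an inhibitor of AKT (0.62 and 0.47), Trp53inp1, a stress protein (0.53 and 0.50), and Abhd4, a lipase (0.36 and 0.36). Ei24, a membrane protein of the endoplasmic reticulum, rose after knockout (0.22, SE 0.05) and stood at 0.03 in the mutant. Pidd1, the scaffold of the complex that activates caspase-2, stood at 104, 107 and 101 CPM before and 103, 95.4 and 96.5 after knockout, ranges that overlapped. In the mutant it fell from 77.6, 71.8 and 71.8 CPM to 64.6, 69.4 and 59.9 (-0.19, SE 0.06, adjusted p = 0.0047). Steap3, a metalloreductase of iron uptake, went against the majority in both lines. It fell from 14.7, 14.5 and 14.2 CPM to 8.1, 7.27 and 8.85 after knockout (-0.81, SE 0.11, adjusted p = 4.4e-08) and from 23.1, 20.8 and 20.6 to 14, 17.5 and 18 in the mutant (-0.37, SE 0.09, adjusted p = 6.5e-04).

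Metabolic members were also divided. Dcxr, a carbonyl reductase (0.74 and 0.56), Cpt1c, a carnitine palmitoyltransferase of neurons (0.56 and 0.41), and Ephx1, an epoxide hydrolase (0.22 and 0.16), rose in both lines, and Ak1, an adenylate kinase, rose after knockout (0.67, SE 0.05) and stood at 0.11 (adjusted p = 0.1) in the mutant, where it was called without mutant library 1 (0.17). The rise of Ephx1 in the mutant (adjusted p = 0.035) lost its call without untreated library 2 (0.11) or mutant library 3 (0.11), and of the exon bases of Cpt1c 13.1% overlap a gene on the opposite strand. Fdxr, which passes electrons to mitochondrial enzymes, fell from 26.9, 27.7 and 28.7 CPM to 18.5, 16.8 and 17.6 after knockout (-0.65, SE 0.08, adjusted p = 1.0e-08). It fell from 36.3, 35.5 and 35.7 CPM to 18.8, 22.8 and 20 in the mutant (-0.80, SE 0.08, adjusted p = 6.8e-12). Tigar, a phosphatase that lowers glycolysis, fell from 59.6 to 61.1 CPM down to 47.4 to 49.4 (-0.32, SE 0.06, adjusted p = 4.5e-06) and from 67.3 to 69.9 down to 52.4 to 52.6 (-0.38, SE 0.05, adjusted p = 1.3e-07). Of the sestrins, which restrain mTORC1, Sesn1 fell in the mutant from 22.6, 23.2 and 18.9 CPM to 16.2, 15.1 and 13.6 (-0.54, SE 0.09, adjusted p = 2.6e-06) and stood at -0.18 (adjusted p = 0.076) after knockout. Sesn2 rose in the mutant (0.19, SE 0.05, adjusted p = 0.0024) and stood at 0.09 after knockout.

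**Figure D2:**
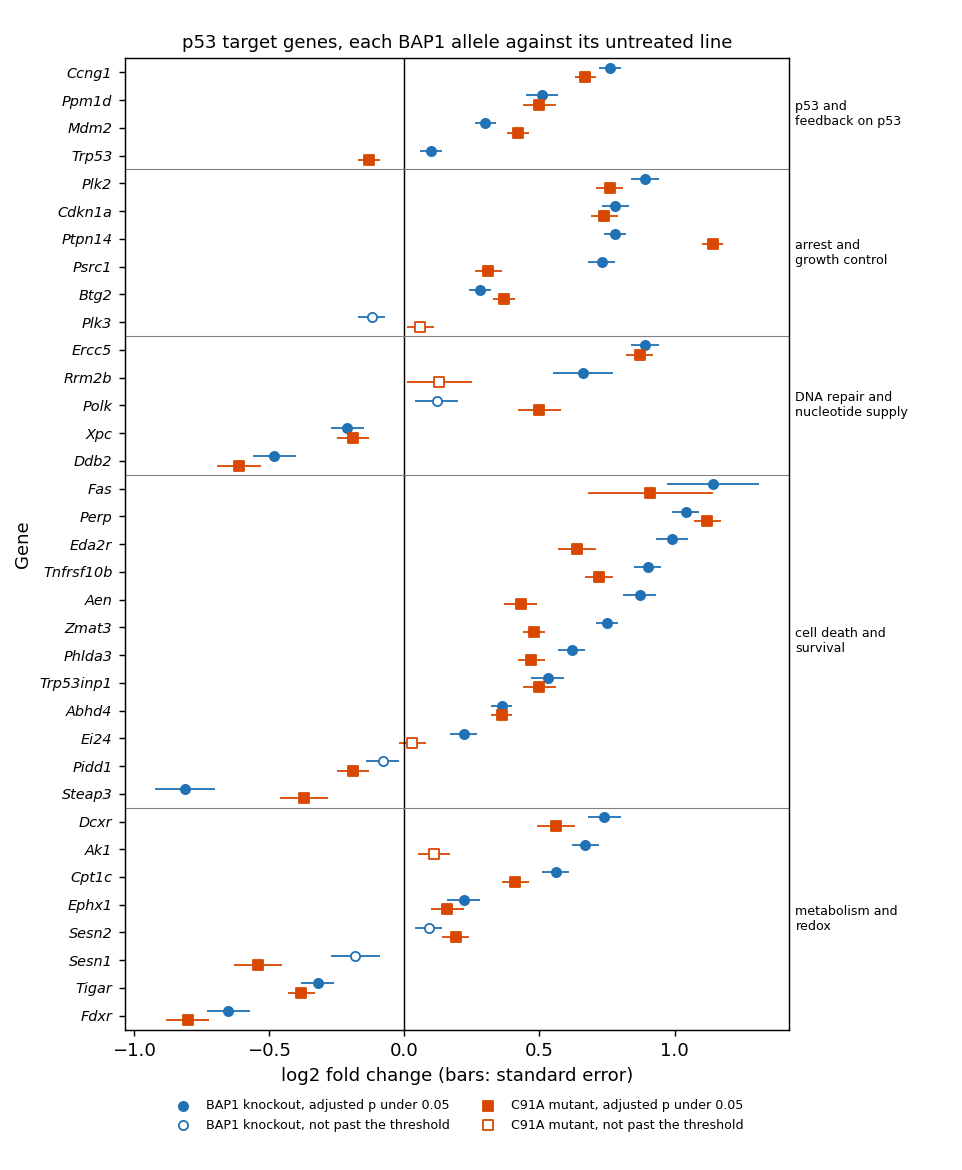
Log2 fold change (horizontal axis, bars are standard errors) of each of the 35 genes after BAP1 knockout and in the C91A mutant, each against its untreated line, with filled symbols for adjusted p under 0.05. Most points lie right of 0 in both, with Ddb2, Xpc, Steap3, Fdxr and Tigar left of 0 in both.

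In the C91A mutant 23 of the 35 genes were higher, against 28.6% of all genes tested, and 8 lower, against 26.4%, with a median log2 fold change of 0.41. In either direction 55% of all genes were called. The comparisons of knockout and mutant share no library, though both include the drug and Cre. Bap1 transcripts rose by 0.89 (SE 0.05, adjusted p = 8.3e-19) from the untreated C91A line to the mutant. The effect of the C91A change cannot be told apart from that rise, here or in the difference between knockout and mutant. Of the 25 genes higher after knockout, 21 were also higher in the mutant, which are 21 of the 23 higher there. The 5 genes lower after knockout were all lower in the mutant, where they made up 5 of 8. The matching overlap among all genes was not computed, so these counts do not set the members apart from genes at large. Trp53 was called in opposite directions. Across the 35 genes, which are no replicates of each other, the changes in knockout and mutant had a Pearson r of 0.89 and a Spearman rho of 0.88, and across all genes the Pearson r was 0.73.

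Some members responded to a different degree in the 2 alleles when that difference was tested directly. Knockout minus mutant was higher for 9 genes, against 12.2% of all genes tested, and lower for 3, against 13.8%, while 23 did not pass. In either direction 25.9% of all genes passed. The higher 9 were Ak1 (0.56, SE 0.08, adjusted p = 7.5e-07), Rrm2b (0.53, SE 0.16), Aen (0.44, SE 0.08), Psrc1 (0.42, SE 0.06), Sesn1 (0.36, SE 0.13), Eda2r (0.35, SE 0.09), Zmat3 (0.27, SE 0.06), Trp53 (0.23, SE 0.06) and Ei24 (0.19, SE 0.07). Ak1 stood at 81.1, 76.6 and 81.7 CPM before and 127, 125 and 129 after knockout, and at 65, 59.9 and 63 before and 61.6, 69.4 and 71 in the mutant, where the ranges overlapped. The lower 3 were Steap3 (-0.44, SE 0.15), Polk (-0.38, SE 0.11) and Ptpn14 (-0.36, SE 0.06, adjusted p = 1.8e-05). For Cdkn1a (0.04, SE 0.07) and Mdm2 (-0.12, SE 0.06) the difference did not pass the test. Polk lost its call without mutant library 1 (-0.27), Rrm2b without mutant library 3 (0.38), and Steap3 without mutant library 2 (-0.40) or 3 (-0.36) or knockout library 2 (-0.39). The values of Ei24 (0.15 to 0.20) and Sesn1 (0.30 to 0.36) also lost the call, each in several of the fits that left out 1 library. Tnfrsf10b passed without mutant library 3 (0.21) or knockout library 3 (0.20), and Plk3 (-0.22), Phlda3 (0.18 and 0.19) and Dcxr (0.25) passed in other such fits.

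In the RNF2-BAP1 double knockout most p53 targets were lower than in the BAP1 knockout. Of the 35 genes 23 were lower, against 30.6% of all genes tested, 4 were higher, against 32.6%, and 8 did not pass, with a median log2 fold change of -0.37 where that of all genes was 0.03. In either direction 63.2% of all genes were called. Libraries of the knockout also gave the rises over its untreated line, so a high value in them moves both results. The lower calls are thus no independent reversal of those rises. The double knockout libraries and those of the BAP1 knockout come from lines whose relation is not given, so the loss of RNF2 cannot be told apart from other differences between them. Against wild type, 26 genes were higher in the double knockout (26.2% of all genes tested) and 6 lower (27.1%), with a median of 0.27, and 53.3% of all genes were called in either direction. The same double knockout libraries enter both comparisons, so their values are given side by side. The untreated knockout line already had 20 of the 35 genes above wild type, against 18.5% of all genes.

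Perp stood at 71.8, 79.7 and 73.7 CPM in the double knockout, below the 172, 188 and 180.0 of the knockout and the 92.7, 89.4 and 96.8 of wild type. The differences were -1.26 (SE 0.05, adjusted p = 5.4e-24) and -0.31 (SE 0.05, adjusted p = 1.4e-06). Tnfrsf10b stood at 83.9, 80.4 and 88.5 CPM, where wild type had 85.5, 85.5 and 84, at -0.86 (SE 0.05, adjusted p = 1.4e-18) against the knockout and -0.01 (SE 0.05) against wild type. Psrc1 stood at 330.3, 354 and 349 CPM against 331, 358 and 333 in wild type, at -0.91 (SE 0.05, adjusted p = 1.2e-20) and 0.02 (SE 0.05). The levels of Tnfrsf10b and Psrc1 thus overlapped those of wild type. Ercc5 stood at 113, 110.1 and 111 CPM, between knockout and wild type (92.7, 91.4 and 93.1), with -0.83 (SE 0.05, adjusted p = 1.6e-18) and 0.27 (SE 0.05, adjusted p = 7.7e-06). Rrm2b stood at 15.7, 12.1 and 12 CPM, with -0.91 (SE 0.11, adjusted p = 4.4e-09) and 0.46 (SE 0.12, adjusted p = 0.0011), and 5.7% of its exon bases overlap a gene on the opposite strand.

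Cdkn1a stood at 153, 160.2 and 163 CPM in the double knockout, below every knockout library and above every wild type library (111, 114 and 114). It differed by -0.53 (SE 0.05, adjusted p = 3.6e-13) from the knockout and by 0.49 (SE 0.05, adjusted p = 4.8e-12) from wild type. Mdm2 stood at 316, 298 and 308 CPM, at -0.21 (SE 0.04, adjusted p = 5.0e-05) and, against 273, 256 and 273 in wild type, at 0.20 (SE 0.04, adjusted p = 1.0e-04). Trp53 stood at 335, 359 and 356 CPM, the lowest of the 6 groups by mean, at -0.24 (SE 0.04, adjusted p = 4.6e-06) against the knockout. Against 370.2, 398 and 384 in wild type it stood at -0.13 (SE 0.04, adjusted p = 0.0077), a call lost without double knockout library 1 (-0.10) or wild type library 2 (-0.11).

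The 4 genes higher in the double knockout than in the BAP1 knockout were Steap3, Tigar, Fdxr and Ei24. The same knockout libraries enter this comparison and that of the knockout with its untreated line, so a low value in them moves both. Steap3 stood at 29.2, 28.4 and 32.9 CPM, against 8.1, 7.27 and 8.85 in the knockout and 15.6, 14.9 and 15.6 in wild type, at 1.88 (SE 0.10, adjusted p = 3.7e-19) and 0.98 (SE 0.09, adjusted p = 5.5e-13). No other member differed more between double knockout and knockout, and no Steap3 ranges of these 3 groups overlapped. Tigar stood at 71.1, 75 and 71 CPM, above knockout and wild type (55.9, 56.8 and 60.9), at 0.58 (SE 0.06, adjusted p = 7.1e-12) and 0.32 (SE 0.05, adjusted p = 1.8e-06). Fdxr, at 20.5, 22.2 and 23.6 CPM, was above the knockout by 0.33 (SE 0.09, adjusted p = 0.0012) and below wild type (31.6, 33.4 and 29.8) by -0.51 (SE 0.07, adjusted p = 2.3e-07). Ei24 stood at 251, 229.7 and 248 CPM, at 0.13 (SE 0.05, adjusted p = 0.023) against the knockout, a call lost without knockout library 1 (0.10) or 2 (0.12) or double knockout library 1 (0.10) or 3 (0.11), and at 0.52 (SE 0.05, adjusted p = 2.7e-12) against wild type. Ddb2, Xpc and Plk3 were also below wild type. Ddb2 stood at 22, 21 and 22.5 CPM (-0.53, SE 0.07, adjusted p = 6.0e-08) and Plk3 at 67.6, 74 and 69.1 CPM (-0.43, SE 0.05, adjusted p = 1.5e-09). Xpc stood at 49.4, 50.6 and 53.1 CPM (-0.16, SE 0.06, adjusted p = 0.019) and lost its call without double knockout library 1 (-0.13) or wild type library 2 (-0.12).

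Against wild type the largest rise in the double knockout was that of Fas, from 2.69, 1.94 and 2.33 CPM to 5.56, 5.42 and 5.15 (1.21, SE 0.18, adjusted p = 2.2e-07). Against the knockout Fas stood at -0.43 (SE 0.16, adjusted p = 0.019), a call lost without knockout library 2 (-0.38) or 3 (-0.36) or double knockout library 3 (-0.40). Ephx1 stood at 64.6, 64.7 and 67.7 CPM against 36.7, 42 and 35.8 in wild type (0.78, SE 0.06, adjusted p = 1.9e-14). In the untreated knockout line Ephx1 was higher still, at 71.8, 69.9 and 70.5 CPM. Plk2 stood at 187, 181 and 187 CPM against 116, 109.8 and 122 (0.68, SE 0.05, adjusted p = 2.3e-16). Eda2r, at 107, 92.8 and 96.9 CPM against 72.1, 59.9 and 66, rose by 0.59 (SE 0.07, adjusted p = 3.9e-10), and Ak1, at 83.5, 92.1 and 90.5 against 57.2, 61.5 and 59.2, by 0.58 (SE 0.06, adjusted p = 7.3e-12). All of these genes had their wild type and double knockout libraries apart. By role, 3 of 4 feedback genes, 4 of 6 of arrest, 3 of 5 of repair, 10 of 12 of cell death and 6 of 8 of metabolism were higher than in wild type, where 26.2% of all genes were. Lower were 1 gene each of feedback, arrest, cell death and metabolism and 2 of repair, where 27.1% of all genes were.

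**Figure D3:**
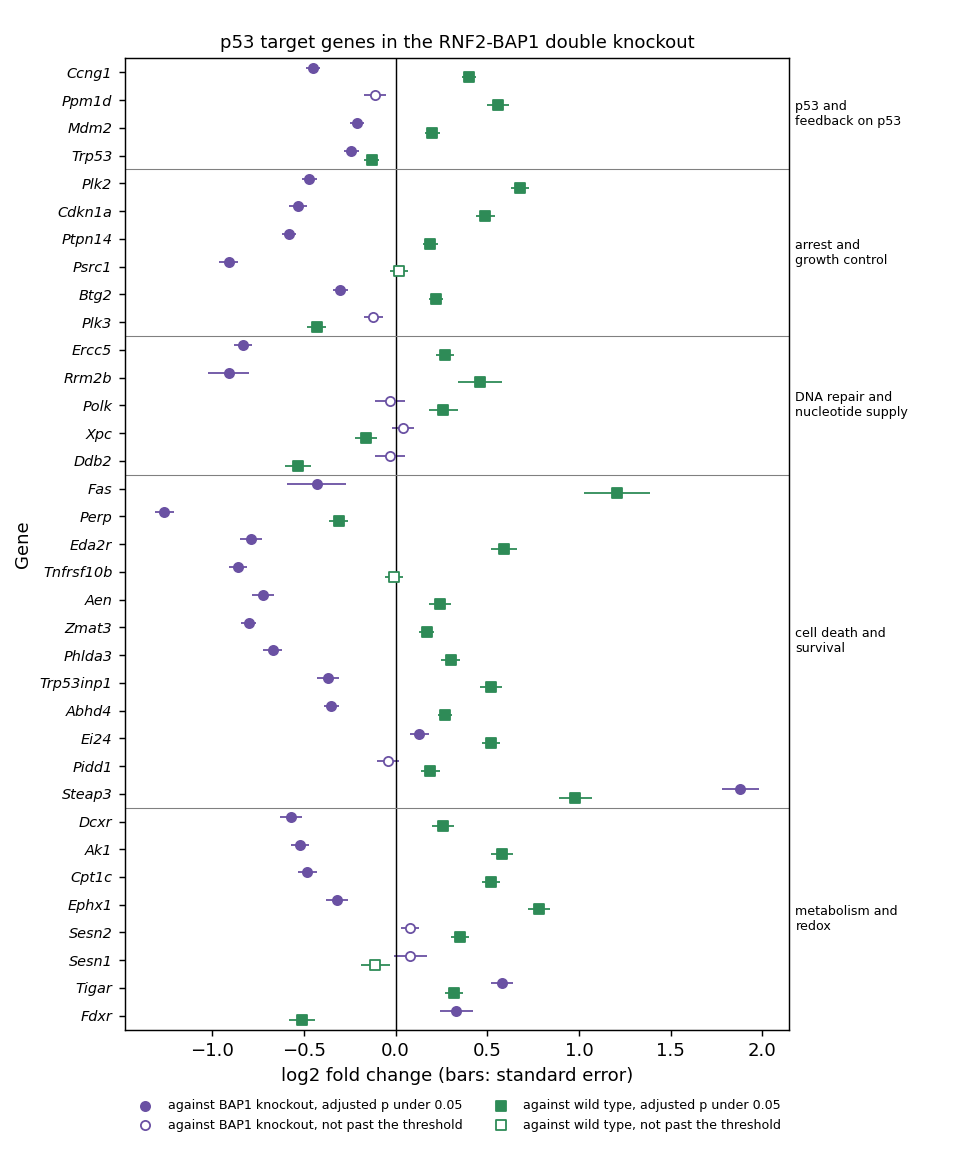
Log2 fold change (horizontal axis, bars are standard errors) of each of the 35 genes in the double knockout against BAP1 knockout (circles) and against wild type (squares), with filled symbols for adjusted p under 0.05. Most circles lie left of 0 and most squares right of it, and Steap3 lies far right at 1.88 against the knockout.

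Some targets already stood apart from wild type in the untreated lines. In the untreated knockout line 20 of the 35 genes were above wild type, against 18.5% of all genes tested, and 2 below, Plk3 (-0.19, SE 0.05) and Fdxr (-0.19, SE 0.07), against 20.8%. The largest differences were those of Ephx1 (0.89, SE 0.06, adjusted p = 5.0e-16) and Rrm2b (0.71, SE 0.11, adjusted p = 2.1e-06). Cdkn1a stood at 0.23 (SE 0.05) and Mdm2 at 0.11 (SE 0.04) above wild type. Leaving out wild type library 1 or 2 or untreated library 1 or 2 left 1 gene below, as Fdxr lost its call (-0.14 to -0.19). Mdm2 lost its call without wild type library 2 (0.08) or any 1 of the untreated libraries (0.10 to 0.12). In the untreated C91A line 8 genes were above wild type, against 13.4% of all genes, and 10 below, against 14.2%, led by Fas (-0.70, SE 0.23), Dcxr (-0.48, SE 0.07) and, upward, Steap3 (0.48, SE 0.09). Without wild type library 1 these counts were 5 and 6, and Fas lost its call (-0.59), as it did without untreated library 1 (-0.52). For Ephx1, at 71.8, 69.9 and 70.5 CPM in the untreated knockout line, the untreated libraries were already far above wild type (36.7, 42 and 35.8) and the knockout libraries (85.5, 78.6 and 82.4) lay a little higher.

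**Figure D4:**
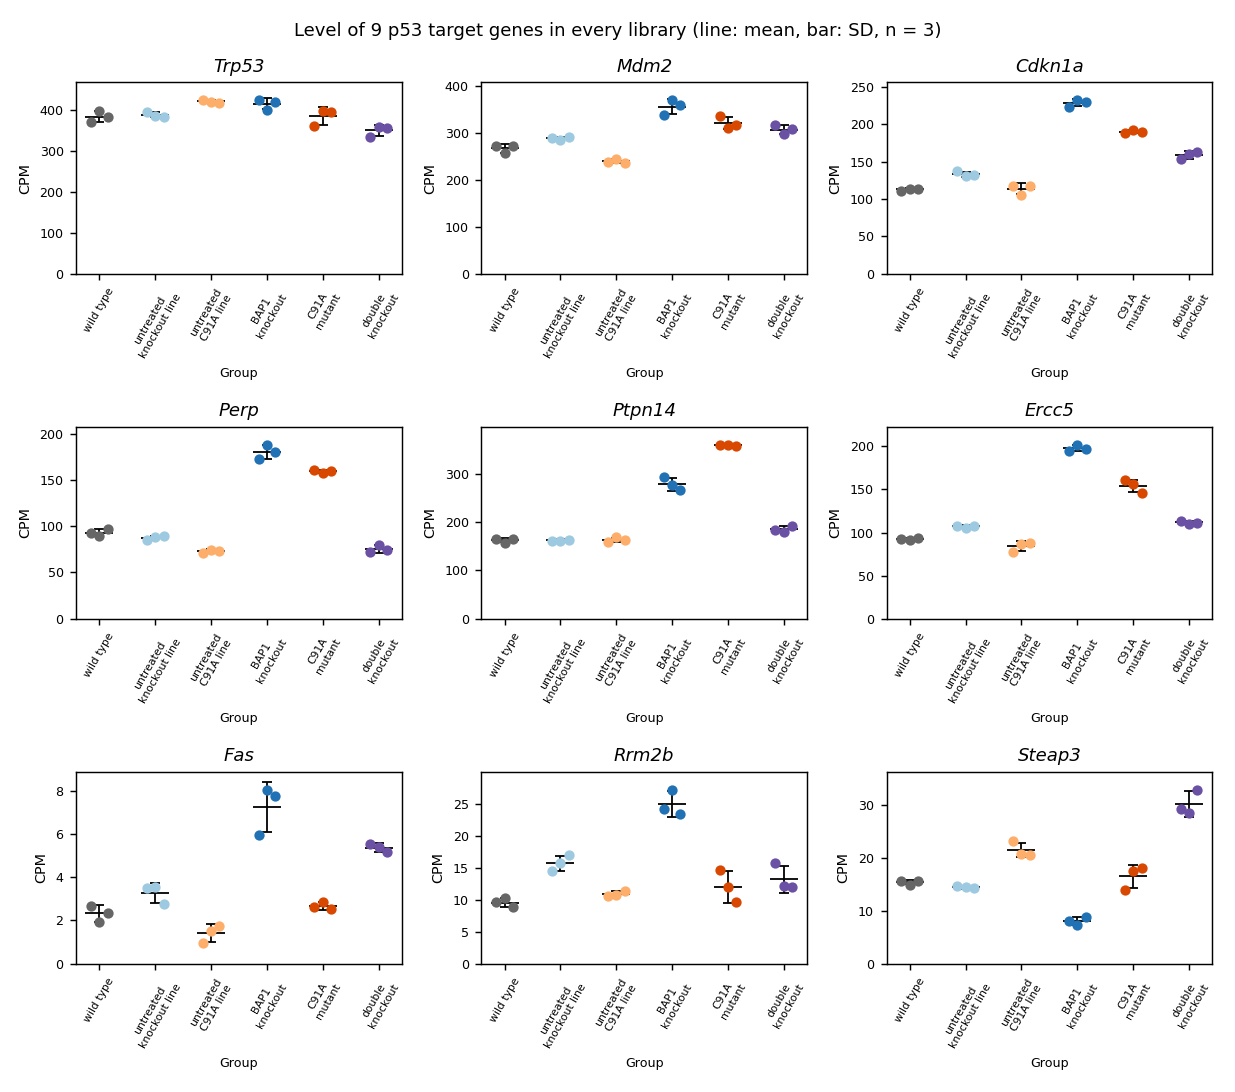
CPM of selected genes in each library (points) with the group mean (line) and SD (bar, n = 3), by group on the horizontal axis, each panel from 0. Cdkn1a and Perp are high in knockout and C91A mutant, Perp is below wild type in the double knockout, and Steap3 goes from 7.27 to 8.85 CPM in the knockout to 28.4 to 32.9 in the double knockout.

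Regulators of p53 were called about as often as genes at large after knockout. Of 27 genes of this list, which holds kinases, ubiquitin ligases, deacetylases and cofactors of p53, 10 were higher and 8 lower after knockout, where 31.3% and 30.3% of all genes were. In the C91A mutant 7 were higher and 5 lower (28.6% and 26.4% of all genes). In the double knockout 6 were higher and 9 lower than in the knockout (32.6% and 30.6%), and 7 higher and 9 lower than in wild type (26.2% and 27.1%). Mdm4, the partner of MDM2, rose after knockout from 185, 203 and 193 CPM to 215, 235 and 225 (0.21, SE 0.06, adjusted p = 9.5e-04) and stood at -0.08 (adjusted p = 0.23) in the mutant. The largest called differences after knockout were those of Twist1, a repressor of p53 function (0.55, SE 0.15), Ppp1r13b, the cofactor ASPP1 (-0.55, SE 0.09), and Rpl5, a ribosomal protein that binds MDM2 (0.54, SE 0.09). Rpl5 has many near-identical pseudogene copies, so its count is uncertain. In the mutant they were Twist1 (0.50, SE 0.16), Sirt1, a deacetylase of p53 (-0.46, SE 0.08), and Trp53bp1, which binds p53 and marked chromatin (-0.34, SE 0.05).

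A second list of 35 genes linked to p53 as targets was called higher more often than lower in both alleles. Like the members, these genes were chosen with earlier results of these data known, so they are no independent support. After knockout 18 were higher and 5 lower, with a median of 0.14, where 31.3% and 30.3% of all genes were called. In the mutant 21 were higher and 5 lower, with a median of 0.24 (28.6% and 26.4% of all genes). In the double knockout 8 were higher and 19 lower than in the knockout (32.6% and 30.6%), and 20 higher and 5 lower than in wild type (26.2% and 27.1%). The largest called differences after knockout were those of Ano3, a phospholipid scramblase, from 12.2, 13.7 and 13.8 CPM to 41, 41.9 and 36.3 (1.58, SE 0.10, adjusted p = 6.5e-18), Kitl, the ligand of the KIT receptor (1.34, SE 0.27), and Pltp, a phospholipid transfer protein (1.09, SE 0.05). In the mutant they were Ano3 (1.57, SE 0.13, adjusted p = 4.1e-14), Kitl (1.23, SE 0.18) and Bcl2l1, which encodes the survival protein BCL-XL (1.16, SE 0.05). Kitl was low, at 0.659 to 1.48 CPM before and 2.61 to 2.91 after knockout.

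Markers of other cell types moved as well, though not all alike. Of the 8 fibroblast markers 7 passed the filter on low counts, and 3 were called higher after knockout. In the mutant, and in the double knockout against wild type, 5 were higher and 1 lower. The 8 fibroblast markers, for feeder cells, summed to 25.9 to 26.3 CPM in the untreated knockout line and 46.8 to 50.5 after knockout, to 27.9 to 29.5 in the untreated C91A line and 64.7 to 66.2 in the mutant, and to 43.1 to 45 in wild type and 80.4 to 82.4 in the double knockout, where Lum was at 0. The 8 endoderm markers summed to 9.76 to 11.8 CPM before and 13.6 to 16.2 after knockout, 13.4 to 14.2 before and 15.8 to 17.5 in the mutant, 18.9 to 22.8 in wild type and 39 to 42.9 in the double knockout. Ttr was at 0 in every group and Afp at 0 in wild type. Of the 5 endoderm markers that passed the filter, 4 were called higher after knockout and 2 in the mutant. Against wild type, 2 were higher in the double knockout. The 8 stem cell markers summed to 4120 to 4235 CPM before and 3220 to 3352 after knockout, 3537 to 3919 before and 2651 to 2728 in the mutant, 3604 to 3798 in wild type and 3865 to 4081 in the double knockout. Of the stem cell markers, 7 were lower and 1 higher after knockout, and all 8 lower in the mutant. Against wild type, 4 were higher and 2 lower in the double knockout. Against the BAP1 knockout, the double knockout had 6 of 8 stem cell markers higher and 1 lower. There, 5 of 7 fibroblast markers were higher and 1 lower, and 4 of 5 endoderm markers were higher. Of all genes, 32.6% were higher and 30.6% lower in that comparison. Of all genes, 31.3% were higher and 30.3% lower after knockout, and 28.6% and 26.4% in the mutant. In the double knockout against wild type these shares were 26.2% and 27.1%. The part of these markers in the results on p53 targets was not tested. In bulk samples such as these, fewer cells of a type and less RNA per cell cannot be told apart.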

How the data were processed

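Polyadenylated RNA of 18 libraries was sequenced as single reads with a TruSeq kit, per the labels' protocols. GSNAP (no version in the sources used here) aligned the reads to GRCm38, per the submitters' processing notes. The deposited counts per gene and the size-factor-adjusted RPKM values were made by the authors. Their use of read strand and their gene models were not given in the sources used here. Of 36528 genes, 31049 were named from RefSeq; named genes held 97.88% to 98.1% of the counts. CPM, fold changes and tests were computed here from the counts, and deposited RPKM served only to compare levels between genes and to recover the authors' size factors. Genes were filtered with filterByExpr (16875 kept), scaled by TMM and fitted in edgeR 4.0.16 (with limma 3.58.1 in R 4.3.3) over all 18 libraries, by the quasi-likelihood test with 1 mean per group and Benjamini-Hochberg adjusted p under 0.05. Each SE was obtained from the log2 fold change and the root of its F value. Replicates varied by 4.5% (common dispersion 0.002), so small differences passed. No library repeated another, since replicate pairs differed beyond sampling noise (chi-square over degrees of freedom 1.77 to 5.78). Tested on simulated data of the knockout comparison with 16502 genes, the script recovered 100% of genes changed by 0.5 or by 1 on the log2 scale and called 0.104% of unchanged ones. There, every gene had the dispersion of 0.002, and 100 genes per size were changed, balanced in direction and drawn above a minimum level. In the data far more genes were called and spread differs by gene, so these rates need not hold for low or variable genes such as Fas.

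The members and all lists were chosen with earlier results of these data known. Named in full were Trp53, Mdm2 and Cdkn1a, the 6 called members with the largest absolute log2 fold change in each allele and double knockout comparison, and called members against the majority direction. From the lists of regulators and other targets, Mdm4 and the 3 largest called differences per allele were named. Marker lists were summed and their calls counted. Alternatives were DESeq2 1.42.0, RLE and the authors' size factors, no filter, only the compared groups, equal depth (8.11 M counts) and leaving out each library. The p53 half-site was searched in RefSeq windows of GRCm38.p6, and exon overlaps were taken from GENCODE M21.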

Additional observations from a re-analysis of the deposited data

Results flagged for a closer look

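For 12 of the 35 genes the change after BAP1 knockout differed from the change in the C91A mutant by the test of the difference itself (edgeR quasi-likelihood, adjusted p under 0.05 over all genes). Of all genes tested, 25.9% passed in either direction. Only 7 of the 12 kept their call in every alternative, while Ei24, Polk, Rrm2b, Sesn1 and Steap3 lost it in some. The differences are knockout minus mutant on the log2 scale. The rise was larger after knockout for Ak1 (0.56), Rrm2b (0.53), Aen (0.44), Psrc1 (0.42), Eda2r (0.35), Zmat3 (0.27) and Ei24 (0.19), of which Ak1, Rrm2b and Ei24 did not pass the test in the mutant. Ptpn14 (-0.36) rose in both and less after knockout. Polk (-0.38) rose in the mutant and was not called after knockout. Trp53 (0.23) was called higher after knockout and lower in the mutant. Sesn1 (0.36) was lower in the mutant and not called after knockout. Steap3 (-0.44) fell in both and fell further after knockout.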

How the results depend on the processing

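No result on the 35 genes reversed under any alternative. Of the called genes, 29 of 30 kept their call in every alternative for the knockout, 28 of 31 for the C91A mutant, 7 of 12 for the difference of both effects, 25 of 27 for double knockout against knockout and 30 of 32 against wild type. For the untreated lines 17 of 22 (knockout line) and 10 of 18 (C91A line) did. Counts moved by more than 1.5 times in these cases, and the cause was not tested. Genes lower after knockout went from 5 to 8 when only the compared groups were fitted. Genes lower in the untreated knockout line went from 2 to 1 with no filter and with DESeq2, and lay between 1 and 2 when 1 library was left out. In the untreated C91A line, leaving out 1 library gave 5 to 9 genes higher (8 with all) and 6 to 11 lower (10 with all), with the lowest of both without wild type library 1. The shallowest library was among the BAP1 knockout libraries, and at equal depth Trp53 lost its call after knockout (0.08), Xpc (-0.13) and Ephx1 (0.15) in the C91A mutant, Ei24 (0.16), Sesn1 (0.29) and Polk (-0.35) in the difference of both effects, and Xpc in the double knockout against wild type (-0.10). In the untreated lines Fas, Mdm2, Sesn2, Trp53 and Pidd1 lost calls at equal depth, and Sesn1 gained 1. No paired analysis was possible because the labels give the replicates no numbers.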

Other observations

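Cdkn2a, which encodes the MDM2 inhibitor ARF and the cell cycle inhibitor p16, was chosen after its values were seen. It stood at 5.99, 6.27 and 7.48 CPM in wild type, 9.71, 8.91 and 8.7 in the untreated knockout line and 7.92, 7.93 and 7.28 in the BAP1 knockout. It stood at 25.8, 27.2 and 23.2 CPM in the double knockout, above every library of the other groups, which is 1.72 on the log2 scale (SE 0.11, adjusted p = 2.1e-17, edgeR) against the knockout and 1.93 (SE 0.10, adjusted p = 4.5e-20) against wild type. In the untreated C91A line it stood at 13.9, 12.7 and 13.7 CPM and in the C91A mutant at 13.4, 14.4 and 12.7, with 0.01 (SE 0.10) between them. The counts do not separate the transcripts of ARF and p16.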
